A study of Mus musculus with 12 samples.

Results

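Transcripts of 9 maternal-effect chromatin factors were measured in the polysome and RNP pools of mouse oocytes with and without *Lsm14b*. The 9 genes are *Npm2*, *Hira*, *Smarca4*, *Ctcf*, *Trim28*, *Setdb1*, *Kdm1b*, *Ezh2* and *Eed*. They were chosen by name from knowledge of the maternal-effect genes, with earlier results of these data known. All 9 were found among the 24259 gene symbols with an FPKM value. A maternal-effect gene is one whose product, laid down in the oocyte, is needed after fertilization, when the embryo still has no transcripts of its own. The proteins of these genes exchange, remodel or mark chromatin in the oocyte and early embryo: some deposit or reorganize histones, some write or erase histone methylation, and some shape the genome's folding or silence retrotransposons and imprinted loci. Growing oocytes store many such mRNAs in ribonucleoprotein (RNP) particles and load others onto ribosomes, so the pool in which an mRNA lies is a measure of its use.

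The libraries came from germinal vesicle (GV) oocytes of 3-week-old C57BL/6J females, collected 46 h after 5 IU of PMSG, a gonadotropin that stimulates follicle growth. WT and *Lsm14b*-KO oocytes were compared. *Lsm14b* encodes an oocyte RNA-binding protein, and KO mice were homozygous for the knockout-first, reporter-tagged insertion Lsm14b tm1a(KOMP)Mbp, which is constitutive and so present throughout oocyte growth. About 1500 oocytes of a genotype were pooled for lysis in the presence of cycloheximide, which holds ribosomes on mRNA. The lysate was spread on a sucrose gradient of 28 fractions, of which fractions 1 to 10 were the RNP pool and 11 to 28 the polysome pool. Each of the 4 groups, WT RNP, KO RNP, WT polysome and KO polysome, had 3 libraries, 12 in all. No source used here states that the 3 libraries of a group came from separate mice, so p-values measure the spread between these libraries, which may be technical.

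The labels were checked first with the deleted gene. *Lsm14b* stood at 27.4 to 34.6 FPKM in WT RNP libraries and 0 to 0.893 in KO RNP libraries, and at 11.3 to 15.3 in WT polysomes and 0 to 0.260 in KO polysomes. All 10 oocyte markers looked at reached 1 FPKM in at least 1 library of each group, and *Ddx4* gave their lowest value, 0.652 FPKM in a WT RNP library. Genes above 0 numbered 10566 to 12720 per library. KO polysome replicate 2 stood apart, because the single entry *Mir300* held 24.5% of its summed FPKM. The 17 markers of follicle somatic, endothelial and leukocyte cells summed to 55.1 to 68.2 FPKM in WT RNP libraries, 66.7 to 92.6 in KO RNP, 41.8 to 87.7 in WT polysomes and 101 to 125 in KO polysomes. In the last of these groups the granulosa cell gene *Inha* alone gave 39.4 to 51.4 FPKM, against 0 to 9.58 in WT polysomes, and 7 of the 17 markers were at 0 in all 3 libraries. Other markers did not all follow *Inha*. *Inhba* (3.72 to 11.9 against 0 to 0.252) and *Fshr* (3.14 to 6.74 against 0 to 0.700) were also higher in KO polysomes. *Cyp19a1* overlapped, with 14.6 to 34.5 in KO and 19.0 to 62.0 in WT polysomes. *Cyp11a1*, below 1 FPKM in every library, was lower in KO polysomes (0 to 0.0971 against 0.644 to 0.838). In the RNP pool *Inha* had 3.80 to 11.0 FPKM in KO libraries, above all WT libraries, whose median was 0. *Fshr* was also higher in KO RNP libraries (7.57 to 13.6 against 4.12 to 5.62). *Inhba*, *Cyp19a1* and *Cyp11a1* overlapped in that pool. The part of these transcripts in the KO values of either pool below was not tested. FPKM is scaled to library size, so a polysome-to-RNP ratio compares shares of the 2 pools and is not the fraction of an mRNA on ribosomes. A lower value cannot tell less mRNA of that gene from more of the others. Fewer oocytes holding an mRNA and less of it in each oocyte cannot be told apart in pooled cells.

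*Npm2* and *Kdm1b* were the most abundant of the 9 mRNAs on polysomes, and the other 7 stood far below them. In WT polysomes *Npm2* led with 188 ± 24.7 FPKM (SD, n = 3), followed by *Kdm1b* with 77.4 ± 11.5, and both were separate from all members below them. *Setdb1* came next at 29.9 ± 5.49. *Ctcf*, *Eed*, *Ezh2*, *Trim28* and *Smarca4* then ran from 21.4 ± 9.12 down to 4.92 ± 1.81, each overlapping its neighbour in the order, and *Hira* was last. In KO polysomes *Kdm1b* drew level with *Npm2*, at 274 ± 61.8 and 270 ± 53.4 FPKM, and the ranges of these members overlapped. They stood at the 97.8 percentile of all expressed genes of that group. The RNP order differed in WT libraries, where *Npm2* was first at 73.2 ± 6.70, *Setdb1*, *Ctcf* and *Eed* followed between 41.9 and 32.0 with overlapping ranges, and *Kdm1b* was only sixth at 15.4 ± 9.52. In KO RNP libraries *Kdm1b* was second at 48.7 ± 4.57, separate from *Npm2* above and *Setdb1* below.

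**Figure D1:**
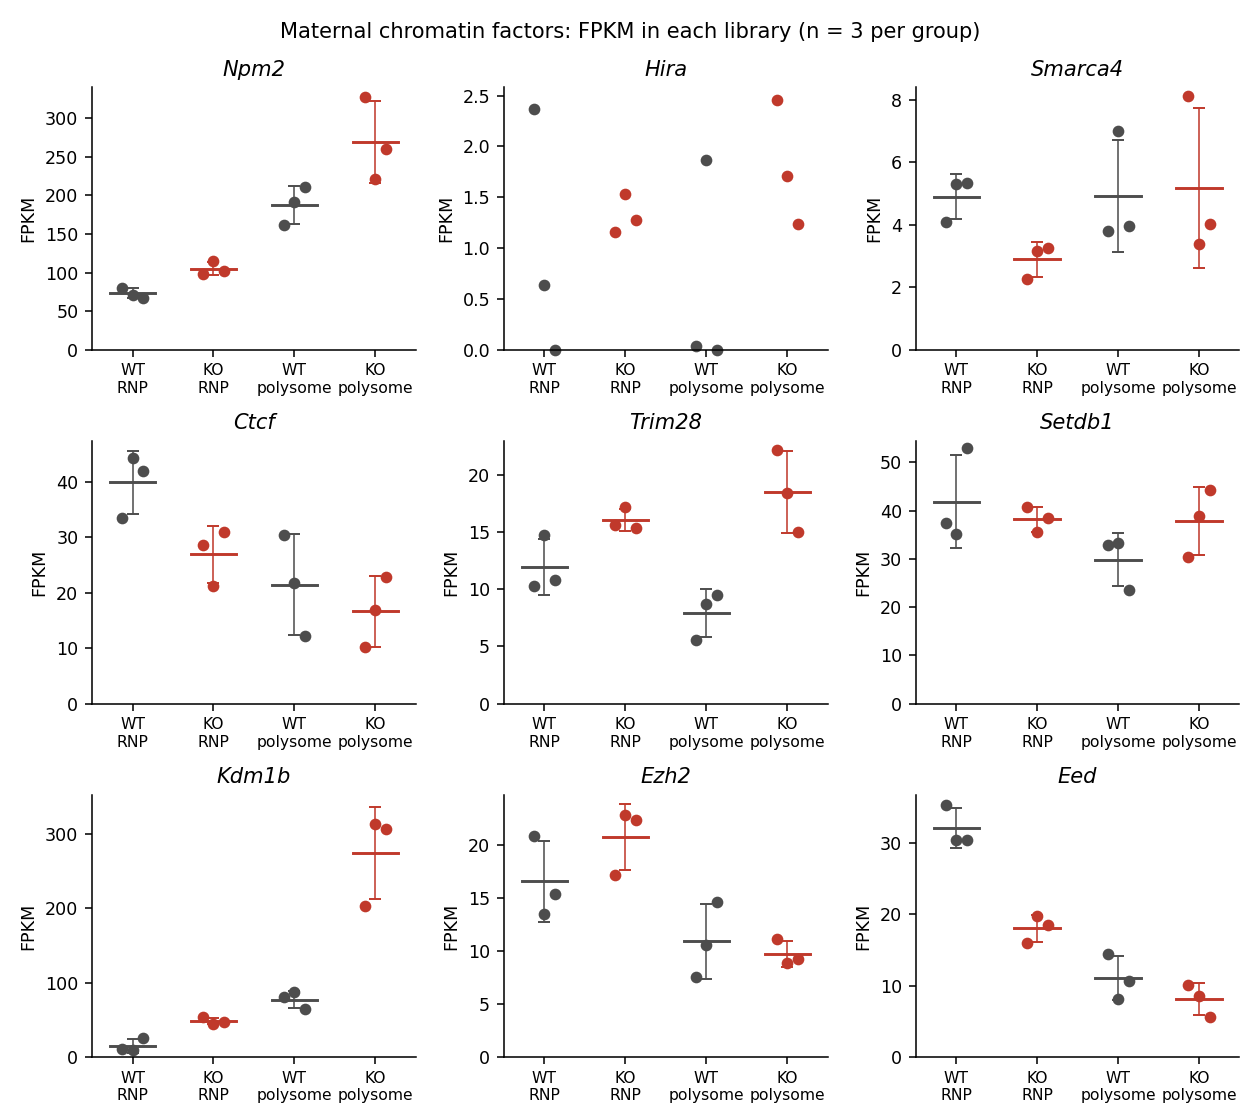
FPKM of each of the 9 members (1 panel each, linear axis from 0, scales differ between panels) in the WT RNP, KO RNP, WT polysome and KO polysome libraries. Points are libraries and, except for *Hira*, lines and bars are the mean and SD of 3 libraries. *Kdm1b* was higher in every KO library than in any WT library of the same pool, and *Eed* was lower in every KO RNP library than in any WT RNP library.

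In the polysome pool, KO and WT differed past the threshold for 1 of the 9 members, *Kdm1b*, which rose. The threshold was a Benjamini-Hochberg adjusted p under 0.05 in limma over all genes tested, and 10.4% of the 9536 genes tested passed it, with 5.64% higher and 4.73% lower, so 1 of 9 is near the share of all genes. The median change of the members was 0.33 on the log2(FPKM + 1) scale, beside 0.10 for all genes tested. In 3 members, *Npm2*, *Trim28* and *Kdm1b*, every KO polysome library lay above every WT polysome library, as it did in 18.2% of all genes tested, and in 0 members did the groups separate in the other direction, against 13.4% of all genes. Without KO polysome replicate 1, 2 or 3 the count of all genes past the threshold was 522, 398 or 383 in place of 989. The balance of all genes then turned, from 538 higher and 451 lower to 247 and 275, 149 and 249, or 136 and 247, while among the members the count was 1 in each case, *Kdm1b*. Without WT polysome replicate 1, 2 or 3 it was 477 and 290, 455 and 309, or 452 and 338. The filter of 3 libraries was kept in these fits. A gene that met it only through 1 genotype was thus lost when a library of that genotype was left out. The part of this in the balance was not tested.

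In the RNP pool 3 of the 9 members passed, *Npm2* and *Kdm1b* higher and *Eed* lower in KO. Among all 9931 genes tested 20.7% passed, 10.5% higher and 10.2% lower, and the 3 of 9 has to be read against that share. The members' median change was 0.32, beside 0.05 for all genes. In 3 members the KO libraries all lay above the WT libraries (*Npm2*, *Trim28* and *Kdm1b*), against 20.7% of all genes, and in 3 they all lay below (*Smarca4*, *Ctcf* and *Eed*), against 18.4%. Leaving out KO RNP replicate 1, 2 or 3 lowered the count of all genes from 2057 to 1255, 1259 or 1298, and the count of members to 2. Of all genes, 1044 were higher and 1013 lower with every library, and 548 and 707, 538 and 721, or 555 and 743 without these. Without WT RNP replicate 1, 2 or 3 they were 1017 and 870, 1012 and 864, or 1053 and 858, under the same filter.

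**Figure D2:**
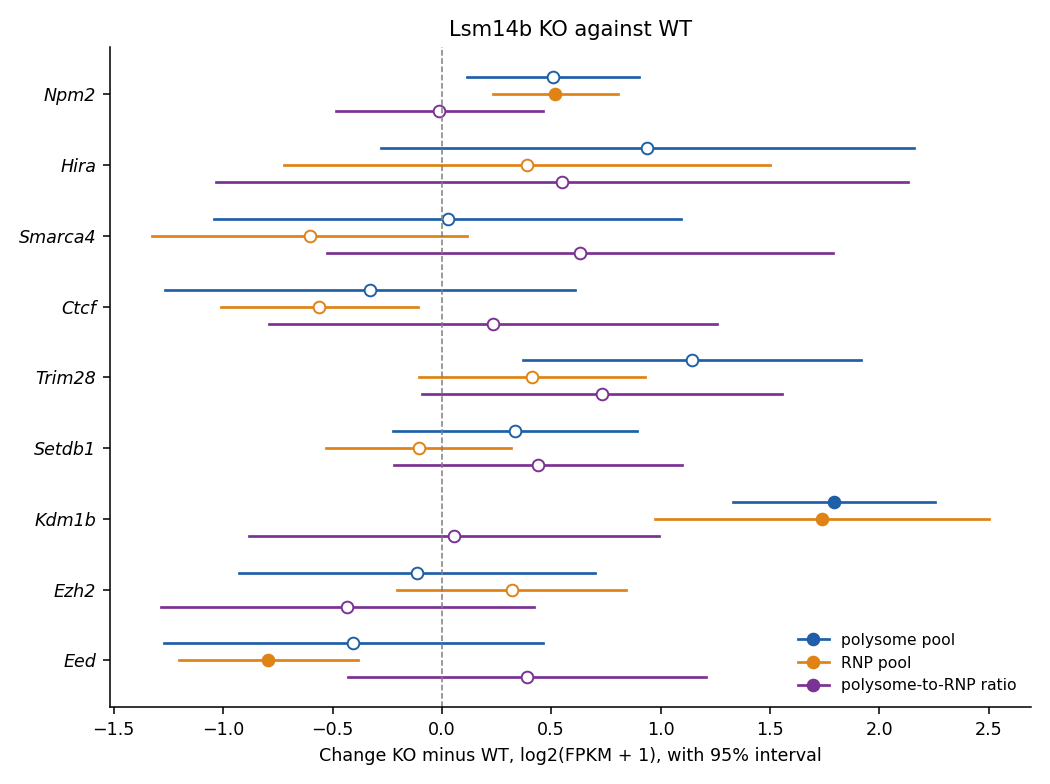
Change of each member between KO and WT in log2(FPKM + 1), in the polysome pool and in the RNP pool, with points for the estimate of limma, bars for its 95% confidence interval and filled points for members past the threshold. *Kdm1b* was farthest to the right in both pools, at 1.79 and 1.74, and *Eed* was the member farthest to the left in the RNP pool, at -0.79.

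*Kdm1b* encodes a flavin-dependent histone demethylase that removes methyl groups from histone H3 lysine 4 and is needed in growing oocytes for the methylation of imprinted genes. It lies on GRCm38 chr13:47043499-47085279, plus strand, and its 3′ untranslated region (UTR) of 2321 bases is the longest among the transcripts examined for the members. On polysomes it was present at 80.2, 87.3 and 64.8 FPKM in the WT libraries. The KO polysome libraries held 203, 312 and 306 FPKM, each more than any WT library and 3.54 times as much in the mean. The fitted change was 1.79 (SE 0.20, 95% confidence interval 1.33 to 2.25, adjusted p = 0.00271).

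RNP libraries showed the same direction at a lower level. WT RNP libraries held 10.6, 9.27 and 26.4 FPKM of *Kdm1b*, with replicate 3 well above the other two, and KO RNP libraries 53.6, 44.6 and 47.8. The lowest KO value was thus above the highest WT value, the means differed 3.15-fold (4.89-fold without WT replicate 3), and the fitted change was 1.74 (SE 0.34, interval 0.97 to 2.50, adjusted p = 0.00738). *Kdm1b* passed in all 14 alternative settings of each of these comparisons, with adjusted p from 0.00114 to 0.0266 in polysomes and from 0.000351 to 0.0348 in RNP. Its estimated fragments, from the spacing of low FPKM values, ran from 298 to 7728 per library. *Dek*, a neighbour on the other strand whose annotation overlaps the 3′ end of *Kdm1b* from base 47084775 on, went the opposite way, with -1.64 in RNP (SE 0.44, adjusted p = 0.0269) and -1.35 in polysomes (adjusted p = 0.0847). The counting is not stated to use strand, and the locus given with the FPKM of *Kdm1b* ran to base 47106221, past the end of *Dek* at 47106201. *Dek* was at or below 36.9 FPKM in all libraries. Its mean was 27.2 in WT RNP, 7.86 in KO RNP, 8.05 in WT polysomes and 2.47 in KO polysomes. *Kdm1b* had means of 15.4, 48.7, 77.4 and 274 in these groups, so *Dek* was the higher in WT RNP. *Tpmt*, also on the other strand at 47022482-47044737, overlaps the 5′ end of *Kdm1b*. Its mean was 11.9 in WT RNP, 13.4 in KO RNP, 8.54 in WT polysomes and 6.04 in KO polysomes. *Tpmt* was not called in either pool (adjusted p = 0.535 in polysomes and 0.686 in RNP). Any part of *Dek* or *Tpmt* in the *Kdm1b* values was not tested. The RNP call of *Dek* was lost without WT RNP replicate 2 or 3 or KO RNP replicate 3 (adjusted p from 0.0704 to 0.0801), with no filter (adjusted p = 0.0899) and without the intensity trend (adjusted p = 0.0690).

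The 3′ UTR was examined because cytoplasmic polyadenylation elements (CPEs), short U-rich motifs near the poly(A) signal, are the best known switches of mRNA storage and translation in oocytes. In the last 150 bases of the annotated transcript (GENCODE M21), on the sense strand, TTTTAT or TTTTAAT was found in 3 of the 9 members, *Setdb1*, *Kdm1b* and *Eed*. Among 18298 genes with such a window 23.5% held one of these motifs. The 30 bases around each match are shown to let the sites of a member that rose and a member that fell in the RNP pool be read side by side, with the motif in capitals.
Kdm1b, chr13:47085157-47085186, plus strand: acacttgatgcTTTTAATcataattatgaa
Eed, chr7:89954703-89954732, minus strand: aagctgtgttatTTTTATtgtgatggaaac
Eed, chr7:89954738-89954767, minus strand: gactttactgcTTTTAATaaaaatttattt
Setdb1, chr3:95323553-95323582, minus strand: gacacagtcatgTTTTATttaacctttaat
The *Kdm1b* motif began 112 bases before the transcript end, and no AATAAA or ATTAAA, the common poly(A) signals, was found in that window, whereas 80.4% of all genes had one. The *Eed* motifs began 67 and 103 bases before the end, the latter sharing letters with an AATAAA, and that of *Setdb1* began 46 bases before it. Positions are on GRCm38, the assembly also called mm10. These matches describe annotated sequence only, and the 3′ ends used in these oocytes were not measured. In *Npm2*, *Hira*, *Smarca4*, *Ctcf*, *Trim28* and *Ezh2* these letters were not in the window.

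*Npm2* encodes nucleoplasmin 2, an oocyte histone chaperone that organizes nucleoli and chromatin and decondenses sperm chromatin after fertilization. The gene is on chr14:70647302-70659244, minus strand, with a 3′ UTR of 203 bases. WT RNP libraries held 80.6, 71.2 and 67.7 FPKM and KO RNP libraries 98.3, 115 and 102, without overlap. This was a rise of 0.52 (SE 0.13, interval 0.23 to 0.81, adjusted p = 0.0189), or 1.44-fold in the means. The call did not hold without KO RNP replicate 2 or 3 (adjusted p = 0.0889 and 0.0571) or without the intensity trend of limma (adjusted p = 0.0906).

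On polysomes *Npm2* measured 162, 192 and 210 FPKM in WT and 327, 222 and 260 in KO libraries. The KO libraries all lay above the WT libraries, but KO replicate 2 exceeded the highest WT library only slightly. The change, 0.51 (SE 0.17, interval 0.12 to 0.90), was of nearly the same size as in RNP and did not pass (adjusted p = 0.0995).

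*Hira* encodes the histone chaperone that places the variant histone H3.3 outside of DNA replication, on chr16:18877037-18970309, plus strand. It was barely detected. WT RNP libraries listed 2.37, 0.640 and 0 FPKM and KO RNP libraries 1.16, 1.54 and 1.28. In polysomes the values were 0.0366, 1.87 and 0 in WT and 2.46, 1.70 and 1.24 in KO. The groups overlapped in both pools. An exact 0 may be a failed estimate here, which was not tested. *Gapdh* and *Ppia* were also listed at 0 in 2 and 3 libraries, but never rose above 0.883 and 0.993 FPKM. Of the 5002 genes with 20 FPKM or more in some library, 10 to 58 were listed at 0 per library. Only 0 to 70 fragments per library were estimated behind *Hira*, and 63.6% of the 75-base windows of its longest transcript also occur in the readthrough gene *Gm28539*. The test gave 0.94 in polysomes (interval -0.28 to 2.16, adjusted p = 0.307), where the gene entered only through its KO libraries and 1 WT library, and 0.39 in RNP (interval -0.72 to 1.50, adjusted p = 0.625). Neither change passed, and the intervals cover changes in both directions.

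*Smarca4* encodes BRG1, the ATPase motor of the BAF nucleosome remodelling complexes, required from the oocyte for genome activation in the embryo (chr9:21616169-21704230, plus strand). The RNP values were 4.08, 5.30 and 5.33 FPKM in WT and 2.25, 3.16 and 3.26 in KO. All 3 KO libraries lay below all WT libraries, 1.70-fold in the means, with a fitted change of -0.60 that did not pass (interval -1.33 to 0.12, adjusted p = 0.218). Polysomes held 3.79, 7.0 and 3.97 FPKM in WT and 8.11, 3.39 and 4.03 in KO. There the groups overlapped, 1 library of each group being near double the others, and the interval of the change, -1.04 to 1.09, left its direction undetermined.

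*Ctcf* encodes the zinc finger protein that anchors chromatin loops and insulates imprinted genes (chr8:105636568-105682922, plus strand). WT RNP libraries held 33.5, 44.2 and 42.0 FPKM, and KO RNP libraries 28.5, 21.2 and 31.0. The groups did not overlap and the means differed 1.48-fold, with a change of -0.56 (interval -1.01 to -0.11) that missed the threshold (adjusted p = 0.0781). Polysome values were 30.3, 21.8 and 12.1 in WT and 10.1, 16.9 and 22.7 in KO. These spread widely within each genotype and overlapped (change -0.33, interval -1.27 to 0.61, adjusted p = 0.665).

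*Trim28* encodes KAP1, the corepressor that zinc finger proteins bring to retrotransposons and imprinted loci (chr7:12999114-13031035, plus strand). Polysome libraries held 5.53, 8.76 and 9.46 FPKM in WT and 22.2, 18.4 and 15.0 in KO. Every KO library exceeded every WT library, and the means differed 2.34-fold. The change of 1.14 (SE 0.34, interval 0.37 to 1.92) nonetheless missed the threshold (adjusted p = 0.0675), and it did so under every alternative run. RNP libraries held 10.3, 14.8 and 10.9 FPKM in WT and 15.6, 17.2 and 15.4 in KO, again without overlap, and the change was 0.41 (interval -0.11 to 0.93, adjusted p = 0.241). *Zbtb45*, annotated on the other strand within the GENCODE M21 span of *Trim28*, had 6.13 to 30.0 FPKM and was not called in either pool (adjusted p = 0.519 and 0.153). The locus given with the FPKM of *Trim28*, chr7:13024151-13031032, does not reach *Zbtb45*, which ends at 13010034.

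*Setdb1* encodes the histone H3 lysine 9 methyltransferase that TRIM28 recruits (chr3:95323525-95357202, minus strand). WT RNP values of 37.4, 35.2 and 53.0 FPKM stood beside KO values of 40.8, 35.6 and 38.5, and WT polysome values of 32.8, 33.2 and 23.5 beside KO values of 30.4, 38.9 and 44.3. The genotypes overlapped in both pools. The intervals of the change ran from -0.53 to 0.32 in RNP and from -0.22 to 0.89 in polysomes, so a fall or rise of less than these bounds cannot be told from none (adjusted p = 0.737 and 0.431). The 3′ end of *Setdb1* overlaps *Cers2* on the other strand, at 21.3 to 34.3 FPKM and not called in either pool (adjusted p = 0.566 in polysomes and 0.930 in RNP). The locus given with the FPKM of *Setdb1*, chr3:95315251-95357202, covers most of *Cers2*, at 95314791-95323599. *Cers2* had means of 29.6 in WT RNP, 29.1 in KO RNP, 32.8 in WT polysomes and 27.8 in KO polysomes. *Setdb1* had means of 41.9, 38.3, 29.9 and 37.9 in these groups. Any part of *Cers2* in the *Setdb1* values was not tested.

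*Ezh2* and *Eed* encode a pair of core subunits of Polycomb repressive complex 2 (PRC2), which methylates histone H3 lysine 27: EZH2 is the enzyme, and EED binds the mark and stimulates it. Oocyte EED is needed for the H3K27 methylation that imprints some maternal alleles. *Eed* (chr7:89954654-89980983, minus strand) measured 35.2, 30.4 and 30.4 FPKM in WT RNP and 16.0, 19.7 and 18.5 in KO RNP libraries. All KO libraries were well below all WT libraries, 1.77-fold in the means, and *Eed* fell by 0.79 on the log2 scale (SE 0.18, interval -1.20 to -0.38, adjusted p = 0.0145). Without KO RNP replicate 1 the adjusted p was 0.0649.

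The polysome values of *Eed* were 14.4, 8.16 and 10.7 FPKM in WT and 10.1, 8.59 and 5.67 in KO. These overlapped (change -0.40, interval -1.27 to 0.46, adjusted p = 0.553). *Ezh2* (chr6:47530139-47595341, minus strand) did not share the RNP pattern of *Eed*. It stood at 20.8, 13.5 and 15.4 FPKM in WT RNP and 17.2, 22.8 and 22.3 in KO RNP libraries, and at 7.58, 10.5 and 14.6 in WT and 11.1, 8.82 and 9.23 in KO polysomes. The genotypes overlapped in both pools, with changes of 0.32 (interval -0.20 to 0.84, adjusted p = 0.375) and -0.11 (interval -0.93 to 0.70, adjusted p = 0.872). Whether the 2 subunits differed in their change was not tested.

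**Figure D3:**
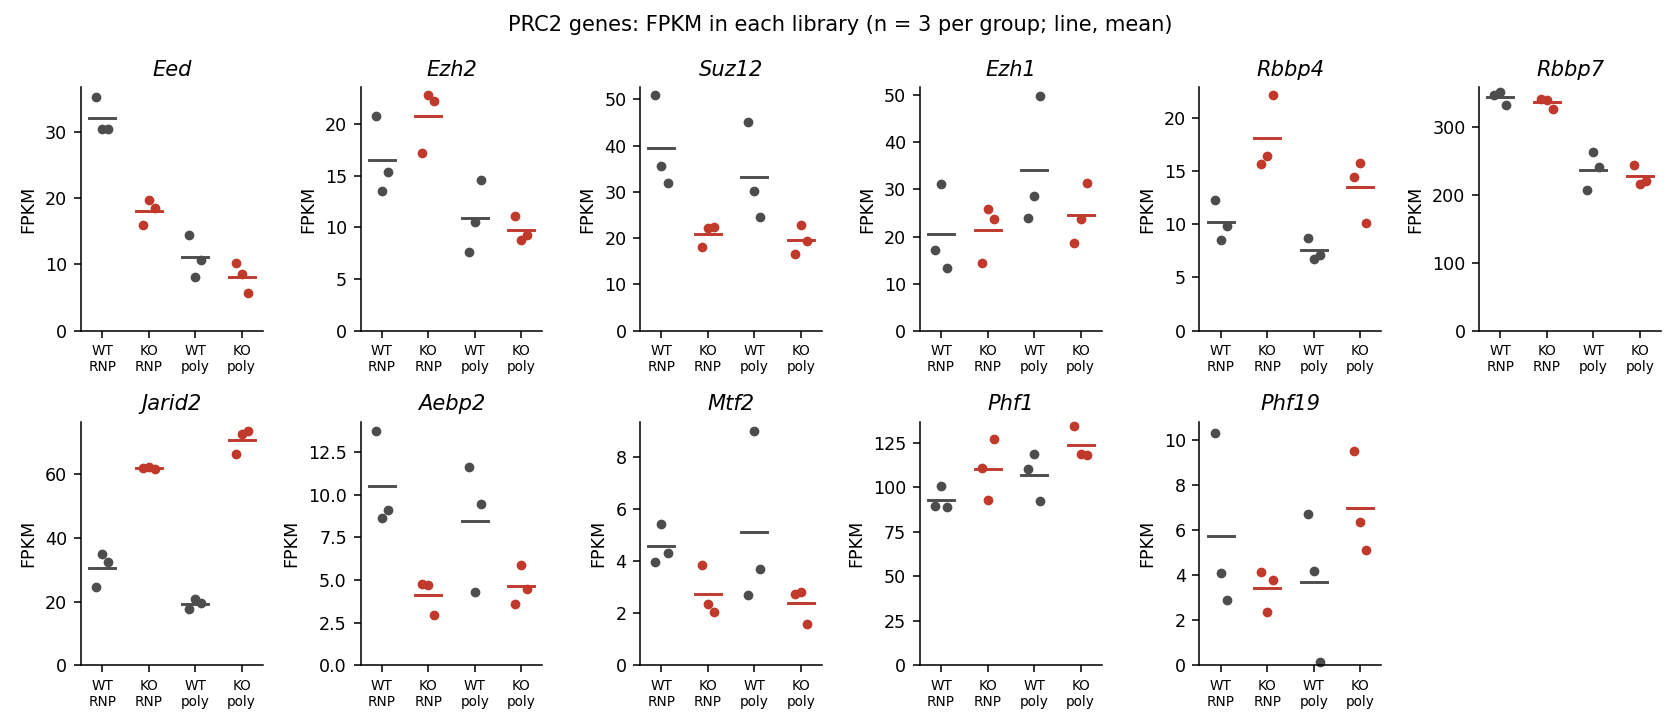
FPKM of the PRC2 genes *Eed* and *Ezh2* and of the 9 PRC2 partners looked up, *Suz12* and *Jarid2* among them, in the 12 libraries (1 panel each). The axis is linear from 0, with points for libraries and lines for the mean of 3. In the RNP pool the KO libraries of *Eed* and *Suz12* lay below the WT libraries, while those of *Jarid2* lay above them in both pools.

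Within WT oocytes, 3 of the 8 members tested differed between the pools. *Npm2* and *Kdm1b* were higher on polysomes and *Eed* was higher in RNP, and *Hira* was too low to be tested. Over all 9574 genes 14.7% passed, 7.97% higher and 6.72% lower on polysomes. *Kdm1b* was 5.02 times higher on polysomes in the means, or 7.77 times without WT RNP replicate 3 (change 2.39, SE 0.37, interval 1.55 to 3.23, adjusted p = 0.00383), and *Npm2* 2.57 times (change 1.34, SE 0.16, adjusted p = 0.00107). These changes stood at the 99.3 and 94.1 percentiles of all genes tested. *Eed* was 2.89 times higher in RNP (change -1.48, SE 0.29, interval -2.14 to -0.82, adjusted p = 0.0116), at the 4.46 percentile. Its call did not hold without WT RNP replicate 1 (adjusted p = 0.0589). The polysome libraries lay wholly above the RNP libraries for 2 members, *Npm2* and *Kdm1b* (16.7% of all genes), and wholly below for 4, *Ctcf*, *Trim28*, *Setdb1* and *Eed* (17.9%). *Ctcf*, with -0.95 (interval -1.71 to -0.18, adjusted p = 0.0971), came closest to the threshold among the others and passed it only without WT polysome replicate 1 (adjusted p = 0.0414). The median over the members tested was -0.51, beside -0.09 over all genes.

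In KO oocytes 4 of the 9 members differed between the pools, where 29.2% of the 9851 genes tested did, 15.5% higher and 13.8% lower. *Kdm1b* was 5.63 times higher on polysomes (change 2.44, SE 0.18, adjusted p = 1.86e-05) and *Npm2* 2.56 times (change 1.33, SE 0.15, adjusted p = 0.000207). *Ezh2* was 2.13 times higher in RNP (change -1.01, SE 0.22, adjusted p = 0.00796), and *Eed* 2.22 times (change -1.09, SE 0.26, adjusted p = 0.0122). *Eed* missed the threshold without KO RNP replicate 2 (adjusted p = 0.0541), and *Ctcf*, at -0.72 (adjusted p = 0.0983), passed it without KO polysome replicate 3 (adjusted p = 0.0340). Polysome libraries lay wholly above RNP libraries for *Npm2*, *Kdm1b* and *Smarca4*, 3 members (22.5% of all genes), and wholly below for *Ezh2* and *Eed*, 2 members (21.7%). The members' median was 0.18, beside -0.04 for all genes.

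**Figure D4:**
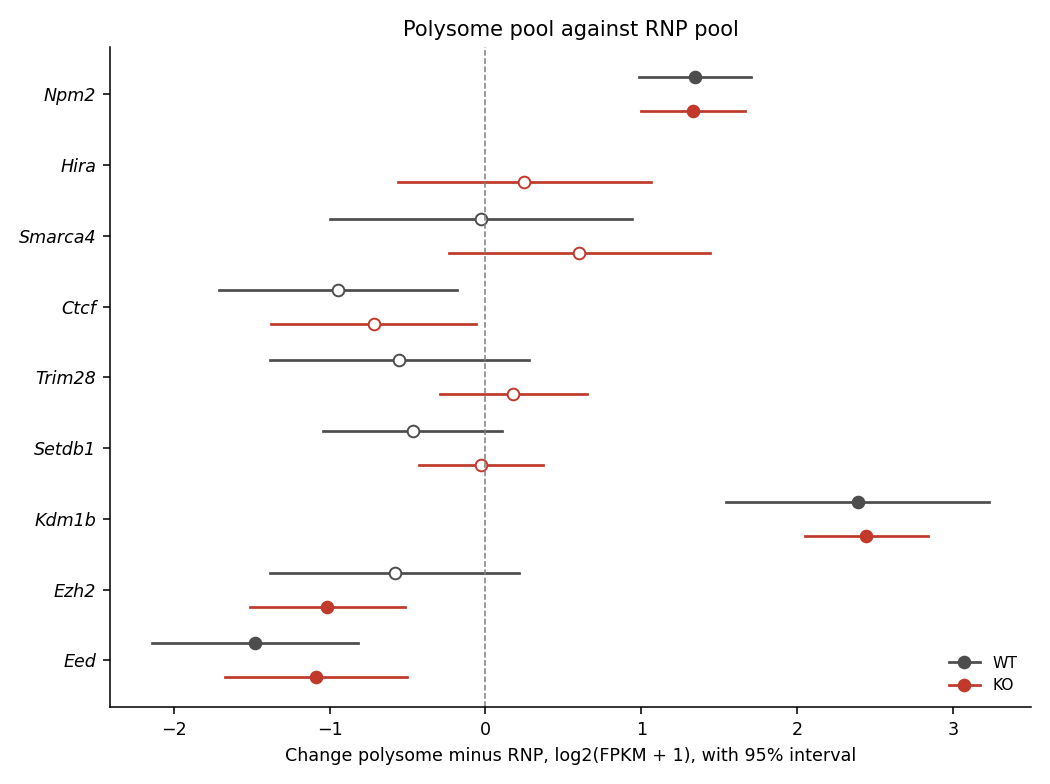
Difference between the polysome and RNP pools in log2(FPKM + 1) for each member within WT and within KO oocytes, with points for the estimate of limma, bars for its 95% confidence interval and filled points for members past the threshold. *Kdm1b* and *Npm2* lay right of 0 and *Eed* left of 0 in both genotypes, while *Hira* has no WT estimate.

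The polysome-to-RNP ratio itself did not differ past the threshold between KO and WT for any member. Over all 10949 genes tested in the interaction of genotype and pool, limma called 26, or 0.237% (0.0822% higher and 0.155% lower), and at an unadjusted p under 0.05 the counts were 0 members and 1220 genes. The ratio of *Kdm1b* changed by 0.06 (interval -0.88 to 0.99, adjusted p = 0.981), so that the higher *Kdm1b* level of KO oocytes was measured in both pools, and a ratio change within that wide interval could not be detected. *Npm2* had the narrowest interval, from -0.48 to 0.46 around -0.01. The greatest estimate was that of *Trim28*, 0.73 (interval -0.09 to 1.56, adjusted p = 0.511), and the lowest that of *Ezh2*, -0.43 (interval -1.29 to 0.42). *Smarca4* (0.63, interval -0.53 to 1.79), *Hira* (0.55, -1.03 to 2.13), *Setdb1* (0.44, -0.22 to 1.10), *Eed* (0.39, -0.43 to 1.21) and *Ctcf* (0.23, -0.79 to 1.26) lay between them. The median was 0.39, beside 0.04 for all genes. The same libraries enter this test and the 4 comparisons above, so these are not separate lines of evidence.

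The summed FPKM of the 9 members gives their combined level in each library. It was 225 to 251 in WT RNP libraries, 273 to 281 in KO RNP, 336 to 371 in WT polysomes and 624 to 669 in KO polysomes. *Npm2* and *Kdm1b* together made up 35.9 to 38.8% of the sum in WT RNP libraries and 84.7 to 84.9% in KO polysomes. Between them stood 53.5 to 56.9% in KO RNP libraries and 71.9 to 78.7% in WT polysomes. No pair of groups overlapped in the sum.

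**Figure D5:**
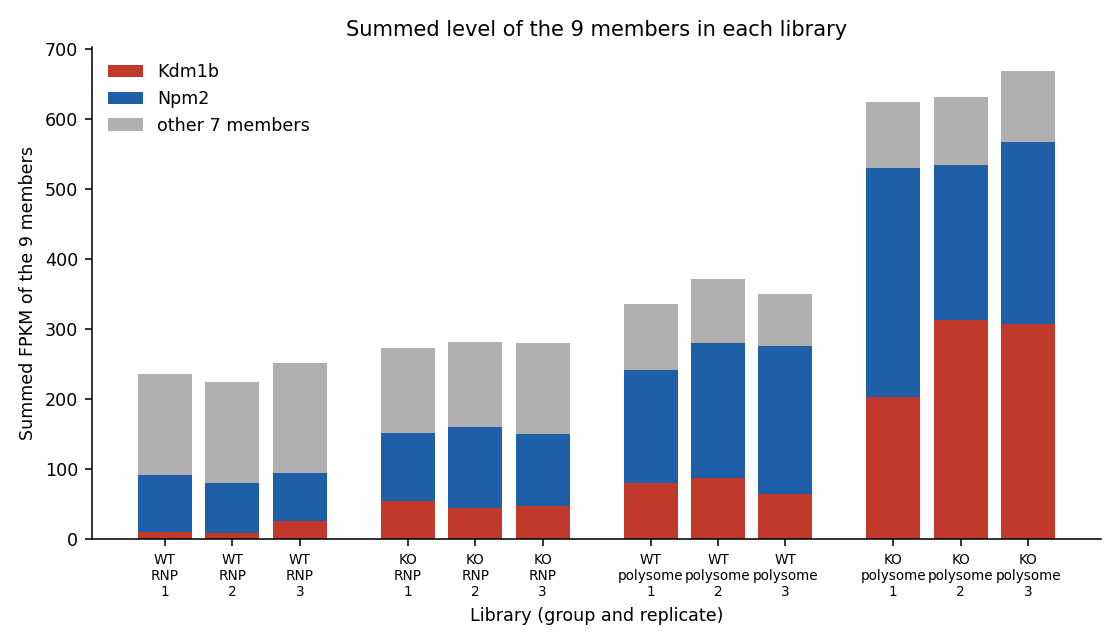
Summed FPKM of the 9 members in each of the 12 libraries, linear axis from 0, stacked as *Kdm1b*, *Npm2* and the other 7 members. KO polysome libraries reached 624 to 669 and WT RNP libraries 225 to 251.

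Known partners of these proteins were looked up in lists drawn up by complex, 68 genes in all, of which 59 were tested in each KO against WT comparison. In polysomes 3 rose and 0 fell, or 5.08%, and in RNP 5 rose and 8 fell, or 22.0%. Both shares lay near or below those of all genes, 10.4% and 20.7%. In the ratio 0 of 62 passed.

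*Jarid2*, which encodes the PRC2 cofactor that brings the complex to DNA, rose in both pools. Its polysome values were 17.8, 20.7 and 19.5 FPKM in WT and 66.5, 72.6 and 73.7 in KO libraries (change 1.82, SE 0.19, adjusted p = 0.00198). In RNP they were 24.7, 34.9 and 32.6 in WT and 61.9, 62.5 and 61.6 in KO (change 1.00, adjusted p = 0.00335). The KO values hardly varied and lay far above all WT values. *Suz12*, the third core subunit of PRC2, fell in RNP, from 50.9, 35.6 and 31.9 FPKM in WT to 18.1, 22.1 and 22.3 in KO (change -0.87, adjusted p = 0.0196). It missed the threshold without WT RNP replicate 1, KO RNP replicate 1 or KO RNP replicate 2 (adjusted p = 0.0516, 0.0766 and 0.0520) and without the intensity trend (adjusted p = 0.0531). *Aebp2*, an accessory subunit, also fell in RNP (change -1.15, adjusted p = 0.0299), but not without WT RNP replicate 1 or any 1 of the KO RNP libraries (adjusted p from 0.0649 to 0.105), nor with no filter (adjusted p = 0.0653). Of the 9 PRC2 partners, 1 rose and 0 fell in polysomes, and 1 rose and 2 fell in RNP. Their medians were -0.06 and -0.03, beside 0.10 and 0.05 over all genes.

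Among 9 tested partners of TRIM28 and SETDB1, 1 rose in polysomes, and 3 rose and 2 fell in RNP. *Atf7ip*, whose protein stabilizes SETDB1, rose in both pools, from 37.8, 50.3 and 43.2 FPKM in WT polysomes to 107, 82.6 and 103 in KO (change 1.14, SE 0.19, adjusted p = 0.00952), and with a change of 0.90 in RNP (adjusted p = 0.00293). No KO library of either pool overlapped the WT libraries. *Zfp445*, a zinc finger gene of imprint maintenance, rose in RNP (change 1.57, adjusted p = 0.0161), and the H3 lysine 9 methyltransferase genes *Suv39h1* and *Suv39h2* fell there (changes -0.76 and -1.61, adjusted p = 0.00667 and 0.0124). *Zfp445* missed the threshold without KO RNP replicate 1 (adjusted p = 0.0695) or 3 (adjusted p = 0.0503) and with no filter (adjusted p = 0.0510). *Zfp57*, named here after its values were seen, is the other imprint zinc finger gene of the list and rose by 0.38 in RNP (adjusted p = 0.000719), though not without the intensity trend (adjusted p = 0.146). The list's median in polysomes was 0.82, beside 0.10 over all genes.

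Of the 14 BAF and PBAF subunits tested besides *Smarca4*, 0 rose and 0 fell in polysomes, and 0 rose and 2 fell in RNP. These were *Arid1a*, the DNA-binding subunit of BAF, from 64.3, 72.1 and 59.8 FPKM in WT to 34.4, 35.3 and 32.1 in KO (change -0.92, adjusted p = 0.00246), and *Ss18* (change -0.89, adjusted p = 0.00308). The KO values of *Arid1a* were all below the lowest WT value. The median of the subunits in RNP was -0.22, beside 0.05.

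Partners of CTCF included the cohesin subunit *Smc3*, which fell in RNP from 9.32, 7.40 and 11.3 FPKM in WT to 2.41, 2.58 and 2.95 in KO (change -1.49, adjusted p = 0.00888). The cohesin release factor listed under its older symbol *Wapal* also fell there (change -0.70, adjusted p = 0.0187), but not past the threshold without KO RNP replicate 1, 2 or 3 (adjusted p = 0.0692, 0.0540 and 0.0554) or without the intensity trend (adjusted p = 0.0664). *Yy1*, a looping factor, had 1.30, 0 and 1.07 FPKM in WT polysomes and 5.23, 7.05 and 9.50 in KO polysomes (change 2.26, SE 0.50, adjusted p = 0.0254). It met the filter on low values only through its KO libraries, as a gene low in WT can, and the exact 0 may be a failed estimate. Its change ran from 1.07 with a pseudocount of 5 to 3.71 with one of 0.1. The call was lost without WT polysome replicate 2 or any 1 of the KO polysome libraries, with adjusted p up to 0.110, and also with no filter (adjusted p = 0.0723) or a pseudocount of 0.1 (adjusted p = 0.0827). In all, 1 of 8 CTCF partners, *Yy1*, passed in polysomes and 2 of 7 fell in RNP.

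The remaining lists held few calls between genotypes. Of 5 genes tested from the list of the nucleoplasmin family and other histone chaperones, *Nap1l4* rose in RNP (change 0.67, adjusted p = 0.00277). None passed in polysomes, where their median change was 0.35. The 7 genes of the HIRA complex and H3.3 chaperones gave 0 calls in either pool, with medians of 0.20 in polysomes and 0.19 in RNP. The 7 partners of KDM1B and KDM1A tested in polysomes and the 8 tested in RNP also gave 0 calls, with medians of 0.59 and 0.02, beside 0.10 and 0.05 over all genes. *Kdm1a*, whose protein is the closest relative of KDM1B, is in this list and had 9.38, 9.91 and 7.36 FPKM in WT RNP libraries and 9.06, 6.77 and 8.17 in KO RNP libraries. These overlapped, with a change of -0.13 (adjusted p = 0.767). Its polysome values were 5.53, 7.72 and 7.78 FPKM in WT and 7.12, 5.91 and 2.22 in KO libraries. They also overlapped (change -0.49, SE 0.47, adjusted p = 0.564).

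For each member the gene with the most similar course over the 12 libraries was found among 10948 genes, by the root mean square distance of log2(FPKM + 1) centred on each gene's own mean. *Ctcf* and *Tspan5* were nearest at 0.14, followed by *Ezh2* and *Psmc2*, *Setdb1* and *Tuba3a*, and *Npm2* and *Tacc3*, all at 0.16. *Smarca4* and *Trappc12* were at 0.20, *Eed* and *Papd7* at 0.22, *Trim28* and *Eef1a1* at 0.24, and *Hira* and *Reps2* at 0.26. *Kdm1b* had the most distant neighbour, *Hspa5*, at 0.41. The mean FPKM of *Hspa5* was 14.7 in WT RNP, 91.7 in KO RNP, 106 in WT polysomes and 310 in KO polysomes, a wider course than that of *Kdm1b*. These distances are descriptions of 12 libraries and carry no test.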

How the data were processed

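Oocyte RNA of the polysome and RNP pools was amplified by a Smart-seq2 procedure and sequenced. The sources name different library kits and top sucrose concentrations (55% and 50%). According to the submitters' processing notes, reads were handled with TopHat2 2.0.13 and Cufflinks 2.2.1 on mm10. The notes also name Cuffnorm and Cuffdiff. Whether the FPKM were also scaled across libraries was not examined. The authors deposited 1 table of FPKM per gene symbol and library, that is, fragments scaled to transcript length and library size. It holds no counts, and the annotation release is not given in the sources used here. The deposited log2 changes between groups, p-values and q-values of the authors' own comparisons were not used. Depth is not recorded: the spacing of low FPKM values gave an estimate of 4710000 to 7810000 fragments per library. Any scaling across libraries would enter this estimate.

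Genes with at least 1 FPKM in at least 3 libraries of a comparison were tested on log2(FPKM + 1) with limma 3.58.1 in R 4.3.3 (empirical Bayes with an intensity trend, Benjamini-Hochberg over all genes tested, threshold 0.05). Fold changes on this scale understate the change of low genes. KO was compared with WT in each pool, the pools within each genotype, and the ratio as the interaction over 12 libraries, 5 comparisons in all. Fold values are ratios of mean FPKM. The code was tested on simulated data. Alternatives were pseudocounts of 0.1 and 5, no filter, a filter at 5 FPKM, rescaling to 1 median, quantile normalization, no trend, a replicate block, and leaving out each library. Gene positions and 3′ UTRs came from GENCODE M21 on GRCm38.

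The text names all members, *Lsm14b*, and, of each partner list, at most 4 genes called in KO against WT, by size of the polysome change, and for each member the gene of the most similar course. Members, lists and rules were chosen with earlier results of these data known. *Kdm1a*, *Zfp57*, *Dek*, *Tpmt*, *Inha*, *Inhba*, *Fshr*, *Cyp19a1*, *Cyp11a1*, *Mir300*, *Gapdh* and *Ppia* were added after their values were seen.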

Additional observations from a re-analysis of the deposited data

How the results depend on the processing

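Of 663 alternative values for the members, 623 kept their direction and side of the threshold, 6 lost the threshold, 2 gained it and 32 changed sign. *Kdm1b* kept its calls in all 4 pairwise comparisons and *Npm2* its calls between the pools under all alternatives. No sign change concerned a called difference, and the greatest such difference was 0.39, for *Hira* in RNP. Quantile normalization gave -0.00769 for *Smarca4* in polysomes, 0.0439 for *Smarca4* between the WT pools and -0.0836 for the ratio of *Kdm1b*. Rescaling gave 0.00168 for *Smarca4* between the WT pools, a pseudocount of 0.1 gave -0.00519 for the ratio of *Kdm1b*, and a pseudocount of 5 gave 0.00197 for that of *Npm2*. Leaving out 1 library, the log2 change ran from -0.29 to 0.26 for *Smarca4* and -0.33 to 0.10 for *Ezh2* in polysomes, from -0.0204 to 0.86 for *Hira* and -0.22 to 0.0719 for *Setdb1* in RNP, from -0.16 to 0.12 for *Npm2*, -0.39 to 0.32 for *Kdm1b* and -0.11 to 0.53 for *Ctcf* in the ratio, from -0.27 to 0.10 for *Smarca4* between the WT pools, and from -0.15 to 0.12 for *Setdb1* between the KO pools.

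The count of members past the threshold stayed at 1 in polysomes and 0 in the ratio, and ran from 2 to 3 in RNP, 2 to 4 between the WT pools and 3 to 5 between the KO pools when 1 library was left out. The count of all genes ran from 383 to 790, 0 to 46, 1255 to 1911, 780 to 1212 and 2030 to 2909 in the same comparisons. It was 545 in polysomes with no filter and 508 with no intensity trend. Without that trend it was 6 in the ratio and 728 between the WT pools. The leave-out fits have fewer libraries and also drop genes that met the filter only through the genotype left short. The cause of these shifts was not tested.

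Libraries with the same replicate number did not deviate together (correlations from -0.02 to 0.02), so they were not treated as pairs. Whether RNP and polysome libraries of 1 number came from 1 gradient is not stated in the sources used here. With a replicate block, 0 genes passed in the ratio, and no call of a member changed in any comparison.

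With 3 libraries a group, the polysome intervals between genotypes reached beyond 1 log2 unit from 0 for *Hira*, *Smarca4*, *Ctcf*, *Eed* and *Trim28*, besides *Kdm1b*, which was called. Few fragments were estimated behind *Hira*.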
